A study of Mus musculus with 13 samples.

Results

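Axon guidance ligands and receptors were compared between Tmem184b-mutant and wild-type mice in the hippocampus at 5 and 15 months of age. Members were chosen by gene symbol as the semaphorins of classes 3 to 7, the plexins, neuropilins, ephrins, Eph receptors, Slits, Robos, netrins, netrin-Gs, Unc5 receptors and Dcc, with a mean normalized count of at least 10 at either age. This rule used no difference between genotypes and gave 70 of the 25025 genes listed at each age. They comprised 20 semaphorins, 11 plexins and neuropilins, 8 ephrins, 13 Eph receptors, 3 Slits, 4 Robos, 4 netrins, 2 netrin-Gs and 5 Unc5 or Dcc receptors. Of 71 matching symbols, Epha1 was left out, with means of 9.77 at 5 months and 8.05 at 15 months, and the lowest mean inside the limit belonged to Efna4, at 32.7 and 27.8. All 70 members had a mean of at least 10 at both ages, and all 70 were tested at both.

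Mutant mice were labelled GT/GT for a gene-trap insertion in Tmem184b, which encodes a multi-pass transmembrane protein, and per the study's methods this allele was kept on the C57BL/6 background. The insertion is present in every cell throughout life, so an adult effect and a developmental one cannot be told apart. Wild types were C57BL/6 mice bred in the same house, littermates where possible, and the labels list no treatment. The 5-month groups held 4 wild types and 3 mutants, the 15-month groups 3 mice each, with one library of total hippocampal RNA per mouse. Per the methods, the wild types at 15 months were all females while the other groups held both sexes. Sex is not given for each mouse in the labels, so at 15 months the genotype and the share of females cannot be told apart. In bulk tissue, fewer cells of a type and less RNA per cell cannot be told apart either.

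Guidance cues steer growing axons by attraction or repulsion, and several keep a role in adult synapses. Semaphorins signal through plexins, with neuropilins as coreceptors for most of the secreted class 3. Ephrins are membrane-bound ligands of Eph receptor tyrosine kinases and signal in both directions between touching cells, the ephrin-A ligands mainly through EphA and the ephrin-B ligands mainly through EphB receptors. Slits repel axons through Robo receptors. Netrins attract through Dcc and repel through Unc5 receptors, and the lipid-anchored netrin-Gs act at synapses through other partners. In the hippocampus these families are known for the layered wiring of the entorhinal, mossy fibre and Schaffer collateral pathways and for dendritic spine shape.

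The values were normalized counts per gene, scaled by the authors within each age, and the test of genotype was limma's moderated fit to log2(normalized count + 1), with p-values adjusted by Benjamini-Hochberg over all genes with a mean of at least 10. The sum of normalized counts per library lay between 2.81e+07 and 3.24e+07, which is not sequencing depth, and the reads behind a value are unknown. Tmem184b was at 1.66% of the wild-type mean in mutants at 5 months and at 1.74% at 15 months (limma adjusted p = 7.19e-10 and 2.03e-06). Each genotype label thus matched the Tmem184b level of its library. The mutant replicate 1 at 5 months stood apart in base composition, since its genes with under 45% GC lay at a median of -0.25 on the log2 scale from the mean of that age, against -0.03 to 0.08 in the other 6 mice. Among the wild types at 5 months the summed choroid plexus markers ranged from 3271 to 165913. The 5 general markers of hippocampal neurons were all detected, with sums of 73299 to 77280 at 5 months and 84459 to 92635 at 15 months.

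Levels of the members, set per kilobase of transcript so that genes can be compared, spanned over 2 orders of magnitude in wild-type mice at 5 months. Sema6b, a transmembrane semaphorin that binds A-type plexins, had the highest level at 2667 normalized counts per kilobase. It was followed by Unc5a, a repulsive netrin receptor, at 2251 and by Efnb3, a ligand of EphB receptors, at 2237. In the other roles the highest levels per kilobase were those of Ephb6, an Eph receptor that lacks kinase activity, at 1030, of Ntng2 at 989, of Slit1 at 882, of Plxna1 at 514, of Ntn5 at 224 and of Robo3 at 135. The lowest were Sema3a at 10.01, Sema3d at 10.7 and Epha2 at 11.6. The order at the top was close in wild-type mice at 15 months, with 2566 for Sema6b, 2152 for Unc5a and 2148 for Efnb3 per kilobase. Efnb3 ranged from 6326 to 7787 normalized counts over the 4 wild types at 5 months and Unc5a from 8602 to 9473, and Unc5a exceeded Efnb3 per kilobase by less than the spread of Efnb3.

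**Figure D1:**
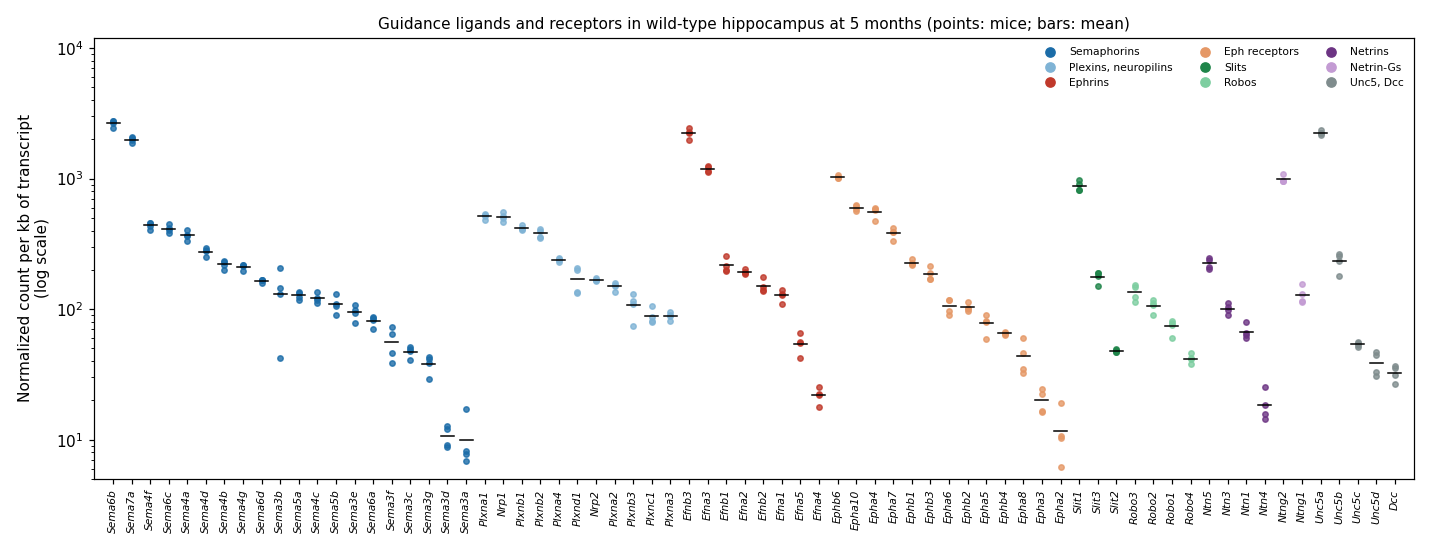
Normalized counts per kilobase of the longest transcript (log axis) in the 4 wild types at 5 months, for 70 members grouped by role, with each point a mouse and each bar the mean. Sema6b, Unc5a and Efnb3 stand at 2667, 2251 and 2237, and Sema3a is lowest at 10.01.

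More members were called between genotypes at 15 months than at 5 months, 16 against 2. After each library was corrected for transcript GC content and length the order turned, with 1 against 4. The order turned over all genes too, with 0.170% of them called at 15 months and 6.05% at 5 months after the correction. The members' shares were then 1.43% and 5.71%. At 5 months 2 of 70 members passed an adjusted p under 0.05, both higher in mutants, which is 2.86% of members against 2.27% of all 15563 genes tested, of which 1.12% were called higher and 1.15% lower. At 15 months 16 of 70 passed, 5 higher and 11 lower in mutants, which is 22.9% of members against 6.02% of all 15541 genes. Over all genes at 15 months 1.99% were called higher and 4.03% lower, 309 and 626 genes, a split that became 407 and 537 when libraries were rescaled by trimmed means, while the members' split became 5 and 10. The median log2 fold change of the 70 members was 0.10 at 5 months and 0.04 at 15 months, beside 0.000251 and 0.02 over all genes tested. At an unadjusted p under 0.05 there were 17 members at 5 months, where 20.5% of all genes passed, and 29 at 15 months, where 28.8% did. Genotypes did not overlap in 13 members at 5 months, or 18.6%, where the share was 18.5% over all genes, and in 27 members at 15 months, or 38.6%, against 34.1%.

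**Figure D2:**
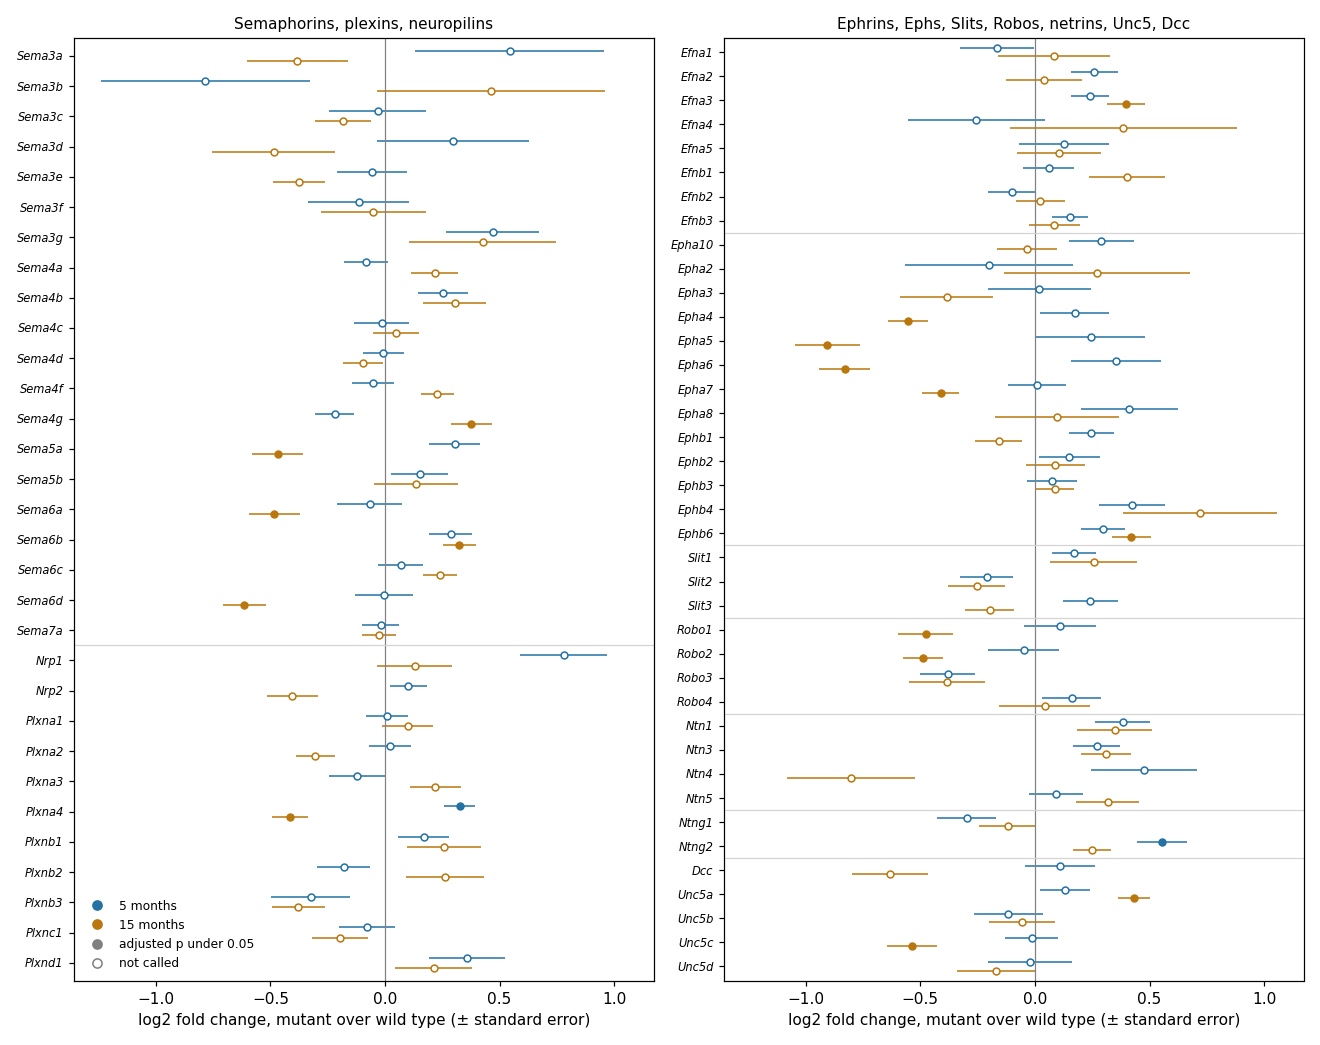
log2 fold change of mutants over wild types (x axis, bars are the limma standard error) for each of 70 members, at 5 months in blue and 15 months in ochre, with filled points for an adjusted p under 0.05. The 11 members called lower at 15 months run from -0.41 to -0.91, and the 5 called higher from 0.32 to 0.43.

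These counts depended on single mice. At 5 months limma called 0 members (12 to 16 at an unadjusted p under 0.05) without any one of the wild types or without mutant replicate 3, where 0.0450% to 0.688% of all genes were called, and 6 members without mutant replicate 1 or 2, where 5.47% and 5.85% were. At 15 months limma called 0 members (26 to 28 at an unadjusted p under 0.05) without any one wild type or without mutant replicate 1, where 0.00643% to 0.0708% of all genes were called, 21 without mutant replicate 2, where 9.86% were, and 19 without mutant replicate 3, where 9.75% were.

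The EphA receptors held 4 of the 11 members that were lower at 15 months, where 4.03% of all genes were called lower. Epha4, Epha5, Epha6 and Epha7 were lower in all 3 mutants than in all 3 wild types, and the 4 other measured EphA receptors, Epha2, Epha3, Epha8 and Epha10, did not pass. The median log2 fold change of the 8 EphA receptors was -0.40 at 15 months and 0.21 at 5 months. At 5 months limma called 0 of them, with 0 at an unadjusted p under 0.05, where 20.5% of all genes passed. At that age 7 of 8 values lay above 0, though that of Epha7, at 0.01, fell just below 0 after the GC and length correction. The longest transcripts of the 4 called receptors had 40.1% to 48.0% GC. Those of Epha2, Epha8 and Epha10 had 56.9%, 61.3% and 58.6%, and that of Epha3 had 41.9%. The 250 bases before the transcription start sites of the 4 called receptors are shown here beside those of Efna3 and Ephb6, which were higher at 15 months. The sequences are those of RefSeq on GRCm38.p6, in the direction of transcription, at chr1:77515089-77515338 (minus strand) for Epha4, chr5:84417383-84417632 (minus) for Epha5, chr16:60605532-60605781 (minus) for Epha6, chr4:28812881-28813130 (plus) for Epha7, chr3:89322940-89323189 (minus) for Efna3 and chr6:41605261-41605510 (plus) for Ephb6. Capitals mark the GC box (GGGCGG, or CCGCCC on the other strand) and the CCAAT box (CCAAT or ATTGG), which do not overlap each other.
Epha4: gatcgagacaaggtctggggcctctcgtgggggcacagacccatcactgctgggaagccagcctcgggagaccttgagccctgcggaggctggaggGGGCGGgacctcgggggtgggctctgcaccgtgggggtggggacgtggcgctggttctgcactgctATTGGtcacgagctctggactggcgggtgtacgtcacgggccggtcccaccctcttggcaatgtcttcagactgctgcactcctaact
Epha5: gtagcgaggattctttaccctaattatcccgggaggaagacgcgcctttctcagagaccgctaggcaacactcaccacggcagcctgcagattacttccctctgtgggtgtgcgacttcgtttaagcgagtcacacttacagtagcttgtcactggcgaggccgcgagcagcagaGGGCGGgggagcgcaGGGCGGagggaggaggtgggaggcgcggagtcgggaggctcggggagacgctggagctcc
Epha6: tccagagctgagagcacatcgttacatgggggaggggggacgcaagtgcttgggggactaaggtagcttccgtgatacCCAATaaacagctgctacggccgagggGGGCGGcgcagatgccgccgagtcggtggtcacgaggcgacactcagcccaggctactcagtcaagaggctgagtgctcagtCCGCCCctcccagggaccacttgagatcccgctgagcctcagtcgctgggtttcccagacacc
Epha7: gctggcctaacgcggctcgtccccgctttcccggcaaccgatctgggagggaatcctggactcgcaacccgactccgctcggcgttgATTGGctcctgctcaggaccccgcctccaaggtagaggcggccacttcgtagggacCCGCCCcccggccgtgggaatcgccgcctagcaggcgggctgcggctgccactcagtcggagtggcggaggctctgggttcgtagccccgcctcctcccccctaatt
Efna3: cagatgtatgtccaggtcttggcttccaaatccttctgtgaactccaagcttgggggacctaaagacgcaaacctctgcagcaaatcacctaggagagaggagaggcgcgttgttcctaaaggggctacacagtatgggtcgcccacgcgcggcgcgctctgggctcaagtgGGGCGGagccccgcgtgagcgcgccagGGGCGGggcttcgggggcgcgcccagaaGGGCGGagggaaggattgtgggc
Ephb6: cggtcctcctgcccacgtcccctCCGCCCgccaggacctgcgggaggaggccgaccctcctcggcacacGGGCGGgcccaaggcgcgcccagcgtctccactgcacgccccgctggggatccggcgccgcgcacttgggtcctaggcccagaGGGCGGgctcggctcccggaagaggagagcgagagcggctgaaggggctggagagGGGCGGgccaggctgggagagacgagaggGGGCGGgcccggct

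Both groups of promoters held GC boxes, with 1 in Epha4, 2 in Epha5, 2 in Epha6, 1 in Epha7, 3 in Efna3 and 5 in Ephb6, and none of the 6 held a TATA box (TATAAA or TTTATA). Over all 32851 promoter windows of this length, 32.7% held a GC box, 33.8% a CCAAT box and 12.4% a TATA box. The promoters of the receptors that were lower were GC-rich, at 66.0% for Epha4, 62.4% for Epha5, 62.8% for Epha6 and 69.2% for Epha7, beside 63.6% for Efna3 and 76.8% for Ephb6. Their longest transcripts were not, at 45.6%, 40.1%, 48.0% and 41.7% GC, beside 56.1% for Efna3 and 59.4% for Ephb6. Of the 70 members, 60 had a promoter in the RefSeq table, with a median GC content of 64.6% against 52.4% over all windows. Among these 60, 71.7% held a GC box, 26.7% a CCAAT box and 3.33% a TATA box.

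Epha5, a receptor for ephrin-A ligands (chr5:84054761-84417382, mm10), showed the lowest fold change among the called members. Its normalized counts at 15 months were 1154, 1356 and 1424 in wild-type mice and 665, 863 and 588 in mutants, a log2 fold change of -0.91 (SE 0.14, limma adjusted p = 0.0277). The highest mutant lay below the lowest wild type. At 5 months the values were 659, 597, 434 and 588 in wild-type mice and 412, 913 and 786 in mutants, with a log2 fold change of 0.24 (SE 0.24, adjusted p = 0.618). Mutant replicate 1 was the lowest of the 7 mice at that age and the other mutants were the highest, so the genotypes overlapped.

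Epha6 (chr16:59653483-60605531, mm10), another EphA receptor, had 810, 879 and 948 normalized counts in the wild-type mice at 15 months and 456, 566 and 464 in mutants. The log2 fold change was -0.83 (SE 0.11, limma adjusted p = 0.0246), and the groups did not overlap. At 5 months it had 459, 381, 354 and 463 in wild-type mice and 364, 695 and 575 in mutants, where mutant replicate 1 lay within the wild types and the other mutants above them (log2 fold change 0.35, SE 0.20, limma adjusted p = 0.344). Without mutant replicate 1 that value was 0.62 (SE 0.14, limma adjusted p = 0.0401). Among the 5-month fits with a mouse left out, only this fit called Epha6, and it called 5.47% of all genes. The genotype effect at 15 months minus that at 5 months was -1.18 (SE 0.26, limma adjusted p = 0.0407), and Epha6 was the only member whose call at 15 months was kept once every library was corrected for transcript GC and length, with a log2 fold change of -0.70 (adjusted p = 0.0458).

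Epha4, which binds ephrins of both classes and is known in dendritic spines, had 6119, 6040 and 6217 normalized counts in the wild-type mice at 15 months and 4027, 4786 and 3765 in mutants (log2 fold change -0.55, SE 0.09, limma adjusted p = 0.0285). Its values at 5 months were 3727, 3613, 3019 and 3776 in wild-type mice and 2925, 4703 and 4553 in mutants. Mutant replicate 1 was again the lowest mouse and the other mutants the highest (log2 fold change 0.17, limma adjusted p = 0.566, and 0.39 with adjusted p = 0.0412 without that mouse). No 5-month fit without another mouse called Epha4, and the fit without replicate 1 called 5.47% of all genes. Epha7 had 3702, 3532 and 3488 in wild-type mice at 15 months and 2412, 2903 and 2764 in mutants (log2 fold change -0.41, SE 0.08, limma adjusted p = 0.0341), and 2653, 2625, 2247 and 2846 against 2055, 2915 and 2934 at 5 months, where the genotypes overlapped (adjusted p = 0.980). After the GC and length correction the log2 fold changes at 15 months were -0.28 for Epha4, -0.56 for Epha5 and -0.09 for Epha7, with adjusted p = 0.124, 0.0698 and 0.642.

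Among the 5 EphB receptors, Ephb6 was called at 15 months and was higher in mutants. It had 3653, 3482 and 3923 normalized counts in the wild-type mice and 5288, 4415 and 5123 in mutants, without overlap (log2 fold change 0.42, SE 0.08, limma adjusted p = 0.0341). At 5 months the mutants also lay above the wild types, with 5434, 4004 and 4954 against 3982, 3886, 3826 and 3799, but mutant replicate 2 was close to the highest wild type and the gene was not called (log2 fold change 0.30, SE 0.10, adjusted p = 0.120). Ephb4, known as a receptor of veins and lymphatics, had 324, 482 and 351 in mutants and 282, 292, 283 and 275 in wild-type mice at 5 months (log2 fold change 0.42, SE 0.14, limma adjusted p = 0.129). At 15 months its mutants spread from 201 to 628 and overlapped the wild types at 181 to 237.

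No ephrin was called lower at 15 months. All 8 had a log2 fold change above 0 at 15 months, from 0.02 to 0.40, but 1 of them passed, and after the GC and length correction those of Efna1, Efna2 and Efnb3 lay below 0. That one was Efna3, an ephrin-A ligand known from astrocyte contacts with dendritic spines. It had 2571, 2904 and 2748 normalized counts in the wild-type mice at 15 months and 3549, 3957 and 3347 in mutants, with the lowest mutant above the highest wild type (log2 fold change 0.40, SE 0.08, limma adjusted p = 0.0354). At 5 months the values were 2970, 2671, 2712 and 2913 against 3636, 2985 and 3378, again without overlap and not called (log2 fold change 0.24, adjusted p = 0.140). Efna2, another ephrin-A, likewise lay higher in all 3 mutants at 5 months, with 506, 450 and 524 against 436, 397, 410 and 403, and was not called (log2 fold change 0.26, limma adjusted p = 0.181). Efnb3, the most abundant ephrin per kilobase, had log2 fold changes of 0.15 at 5 months and 0.08 at 15 months and overlapped at both ages (limma adjusted p = 0.313 and 0.651).

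Of the 20 semaphorins, limma called 0 at 5 months and 5 at 15 months, where 2.27% and 6.02% of all genes were called. At 5 months 5 had an unadjusted p under 0.05, beside 20.5% of all genes. Those called at 15 months were all transmembrane members. Sema6d, Sema6a and Sema5a were lower in mutants and Sema4g and Sema6b were higher. The 7 secreted class 3 semaphorins had 0 called by limma at either age and 1 at an unadjusted p under 0.05 at each, with log2 fold changes at 15 months from -0.49 to 0.46. Sema3a and Sema3e were still lower in all 3 mutants than in all 3 wild types at 15 months, both at -0.38 (limma adjusted p = 0.280 and 0.0706). Sema6d, a ligand of plexin-A1, had 1509, 1563 and 1424 normalized counts in the wild-type mice at 15 months and 983, 1084 and 879 in mutants (log2 fold change -0.61, SE 0.09, limma adjusted p = 0.0268). The groups stood clear of each other, whereas at 5 months the mutants at 828, 1275 and 1117 lay on either side of the wild types at 1073, 1077, 1070 and 1024. Sema6a, which signals through plexin-A2 and plexin-A4 in mossy fibre targeting, had 479, 522 and 515 in wild-type mice at 15 months and 399, 360 and 328 in mutants (log2 fold change -0.48, SE 0.11, limma adjusted p = 0.0434). Its 5-month values overlapped, at 481 to 596 in wild-type mice and 457 to 673 in mutants.

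Sema5a had 2321, 2138 and 2460 normalized counts in the wild-type mice at 15 months and 1408, 1921 and 1706 in mutants, which were all lower (log2 fold change -0.47, SE 0.11, limma adjusted p = 0.0463). At 5 months it had 1335, 1437, 1280 and 1454 in wild-type mice and 1395, 1936 and 1810 in mutants, where mutant replicate 1 lay among the wild types (log2 fold change 0.30, SE 0.11, limma adjusted p = 0.153). Without that mouse the 5-month value was 0.45 (SE 0.08, limma adjusted p = 0.0263). That fit called 5.47% of all genes, and no 5-month fit without another mouse called Sema5a. Sema4g moved the other way. It had 749, 707 and 720 in wild-type mice at 15 months and 1016, 956 and 862 in mutants (log2 fold change 0.38, SE 0.09, limma adjusted p = 0.0465), but 965, 986, 990 and 896 in wild-type mice at 5 months and 878, 763 and 831 in mutants, all lower and not called (log2 fold change -0.22, adjusted p = 0.180). Sema6b, the member with the highest level per kilobase, lay higher in every mutant at both ages. It had 9613, 9134 and 10015 in wild-type mice and 12064, 11256 and 12720 in mutants at 15 months (log2 fold change 0.32, SE 0.07, limma adjusted p = 0.0400), and 10379, 9991, 9152 and 10328 against 13875, 10594 and 12174 at 5 months (log2 fold change 0.29, SE 0.09, limma adjusted p = 0.123).

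Plxna4, a plexin that transduces class 3 and class 6 semaphorin signals in axon repulsion, was the 1 member called at both ages, and the directions were opposite. At 5 months (chr6:32144268-32588192, mm10) it had 3117, 3050, 2940 and 3188 normalized counts in the wild-type mice and 3705, 3937 and 3912 in mutants, and every mutant was above every wild type. The log2 fold change was 0.33 (SE 0.07, limma adjusted p = 0.0386), and it was 0.22 after the GC and length correction (adjusted p = 0.0476). At 15 months it had 4623, 4334 and 4338 in wild-type mice and 3240, 3681 and 3081 in mutants, so every mutant was below (log2 fold change -0.41, SE 0.08, limma adjusted p = 0.0334). After the correction that value was -0.09 (adjusted p = 0.587). The difference of the effects between ages was -0.74 (SE 0.10, limma adjusted p = 0.00643), was called with each of the 13 mice left out in turn, from -0.81 to -0.68, and was -0.31 (adjusted p = 0.0706) after the correction.

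The other 10 plexins and neuropilins were not called at either age. Nrp1, the coreceptor of Sema3a that also binds vascular endothelial growth factor, had the highest fold change of all members at 5 months. Its normalized counts were 1677, 1854, 1787 and 1992 in wild-type mice and 2622, 2442 and 4799 in mutants, with no overlap and mutant replicate 3 far above the rest. The log2 fold change of 0.78 (SE 0.19) just missed the threshold (limma adjusted p = 0.0571), and it passed after the GC and length correction (0.80, adjusted p = 0.0341). At 15 months Nrp1 overlapped, at 2133 to 2368 in wild-type mice and 1864 to 3248 in mutants. The summed mural cell markers did not overlap at 5 months either, at 6547 to 7470 in wild-type mice and 8998 to 11246 in mutants, with 2 of 4 markers called higher and none at 0, and their part in the Nrp1 values was not tested. Plxna1, the plexin with the highest level per kilobase, had log2 fold changes of 0.01 and 0.10 and overlapped at both ages.

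No Slit was called at either age, while Robo1 and Robo2, the main Slit receptors of neurons, were lower at 15 months. The 3 Slits had log2 fold changes from -0.25 to 0.26 at 15 months and overlapped at both ages. Slit1, the most abundant, had 7040, 5057 and 5781 normalized counts in the wild-type mice at 15 months and 5756, 6172 and 9888 in mutants (log2 fold change 0.26, SE 0.19, limma adjusted p = 0.398). Robo2 had 1521, 1472 and 1508 in wild-type mice and 995, 1186 and 1035 in mutants, a wide gap beside a narrow spread of the wild types (log2 fold change -0.49, SE 0.09, limma adjusted p = 0.0303). Robo1 had 884, 934 and 950 against 552, 754 and 700 (log2 fold change -0.48, SE 0.12, limma adjusted p = 0.0492). At 5 months both overlapped, with mutant replicate 1 at 657 for Robo2 and 464 for Robo1 and the other mutants at or above the wild-type means. Robo3, a divergent receptor known in midline crossing, had 548, 735, 712 and 595 in wild-type mice at 5 months and 522, 496 and 463 in mutants, all lower. It was not called (log2 fold change -0.38, SE 0.12, limma adjusted p = 0.114) but passed after the correction (-0.45, adjusted p = 0.0377). At 15 months its log2 fold change was -0.38 with overlap (limma adjusted p = 0.164).

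Ntng2, a netrin-G that binds NGL-2 at synapses, was called at 5 months with a larger fold change than Plxna4, the other member called. Located at chr2:29194541-29253005 (mm10), it had 2037, 1793, 1804 and 1809 normalized counts in the wild-type mice and 3136, 2245 and 2893 in mutants. The lowest mutant was above the highest wild type, and the log2 fold change was 0.55 (SE 0.11, limma adjusted p = 0.0354), or 1.47-fold. It stayed between 0.46 and 0.70 with each mouse left out, although 2 of those 7 fits called it, those without mutant replicate 1 or 2. After the GC and length correction it was 0.57 (adjusted p = 0.0133). At 15 months Ntng2 had 1821, 1931 and 2144 in wild-type mice and 2441, 2194 and 2371 in mutants, still without overlap but not called (log2 fold change 0.25, SE 0.08, limma adjusted p = 0.0873). Ntng1, the other netrin-G, was lower in every mutant at 5 months and not called (log2 fold change -0.30, limma adjusted p = 0.221).

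Marker lists of several cell types also did not overlap between genotypes at 5 months, 7 of 18 lists by their summed level and 4 of 18 by their mean log2 level. Of all single genes, 18.5% did not overlap at that age and 2.27% were called. The lists share libraries and are not independent. The summed CA1 markers were 23614 to 24252 in wild-type mice and 26231 to 32095 in mutants, with 1 of 4 called higher, and the summed interneuron markers were 21564 to 25493 and 15913 to 18824, with 2 of 6 called lower. Some lists were apart by their sums but overlapped by their mean log2 level. Dentate granule markers had sums of 8391 to 9993 in wild-type mice and 9996 to 11471 in mutants, with 0 of 5 called, ventral hippocampus markers 15655 to 17887 and 18766 to 22839, with 0 of 4 called, and astrocyte markers 61729 to 66406 and 68497 to 81144, with 1 of 5 called higher. Nnat made up most of the ventral hippocampus sum, with means of 15830 in wild types and 19488 in mutants. The log2 fold changes of Nr2f2, Trhr and Dlk1 were 0.01, -0.05 and -0.14. The summed choroid plexus markers were lower in mutants, at 785 to 3166 against 3271 to 165913, with 2 of 7 called lower. Their mean log2 level overlapped (two-sided exact permutation test, p = 0.114), and the wild types themselves spread widely. Neocortex markers, with 0 of 4 called, had sums of 2723 to 3061 and 2902 to 3517 that overlapped, though their mean log2 levels did not. No marker of these lists was at 0. Two-sided exact permutation tests of the mean log2 level gave p = 0.0571 for CA1, interneuron, mural and neocortex markers, the lowest possible with 4 and 3 mice, and the part of all these cells in the Ntng2 and other 5-month values was not tested.

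Limma called 0 of the 4 netrins, with 2 at an unadjusted p under 0.05 at 5 months and 3 at 15 months, where 20.5% and 28.8% of all genes passed. Ntn1, the best known attractant of the family, had 386, 372, 472 and 350 normalized counts in the wild-type mice at 5 months and 481, 516 and 541 in mutants, all higher (log2 fold change 0.38, SE 0.12, limma adjusted p = 0.114). Ntn4, a basement membrane netrin of low level, had 116, 121 and 63.2 in wild-type mice at 15 months and 51.0, 52.2 and 61.6 in mutants, lower without overlap and not called (log2 fold change -0.80, SE 0.28, limma adjusted p = 0.0978). At 5 months Ntn4 overlapped, with 52.9 to 91.6 in wild-type mice and 85.4 to 106 in mutants. Ntn5, the netrin with the highest level per kilobase, overlapped at both ages (log2 fold changes 0.09 and 0.32).

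The receptors of netrins moved in opposite directions at 15 months. Unc5a, a repulsive receptor and the second most abundant member per kilobase, had 8968, 8051 and 8777 normalized counts in the wild-type mice and 11298, 11249 and 12237 in mutants, with a wide gap (log2 fold change 0.43, SE 0.07, limma adjusted p = 0.0285). At 5 months mutant replicate 1 alone stood out, at 12151, and the other mutants at 8725 and 8980 lay within the wild types at 8602 to 9473. Unc5c, another repulsive receptor, had 921, 904 and 890 in wild-type mice at 15 months and 594, 729 and 559 in mutants, all lower (log2 fold change -0.54, SE 0.11, limma adjusted p = 0.0344). Dcc, the attractive receptor, had 549, 639 and 554 in wild-type mice and 428, 432 and 282 in mutants at 15 months, lower without overlap and just short of the threshold (log2 fold change -0.63, SE 0.17, limma adjusted p = 0.0535). At 5 months Unc5c and Dcc overlapped, with log2 fold changes of -0.01 and 0.11. Unc5b and Unc5d were not called and overlapped at both ages.

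**Figure D3:**
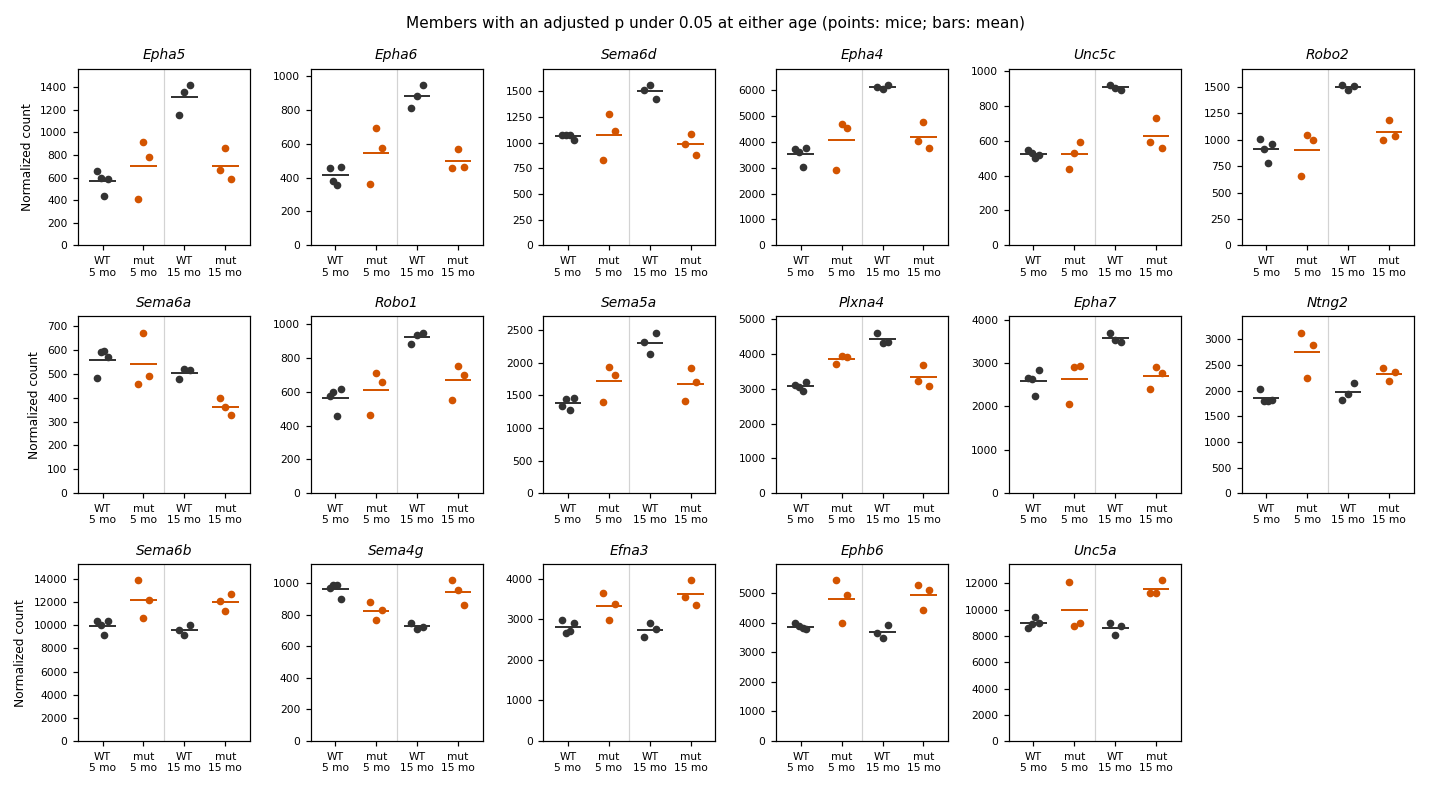
Normalized counts in each mouse (y axis from 0) for the 17 members with an adjusted p under 0.05 at either age, wild types in black and mutants in orange, bars at the mean. At 15 months the genotypes separate in all panels, whereas at 5 months mutant replicate 1, the leftmost orange point, lies below the other mutants for Epha4, Epha5, Epha6, Epha7, Plxna4, Robo1, Robo2, Sema5a, Sema6a, Sema6d and Unc5c.

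The difference between the genotype effects of the ages was called for 4 of 70 members, which is 5.71% against 1.75% of all 15340 genes tested, of which 0.613% had a higher effect at 15 months and 1.13% a lower one. Epha6, Sema5a and Plxna4 had a lower effect at 15 months, with differences of -1.18, -0.77 and -0.74 on the log2 scale (limma adjusted p = 0.0407, 0.0412 and 0.00643), and Sema4g a higher one, 0.60 (adjusted p = 0.0291). The effects at the 2 ages, which share no mice, had the same sign in 42 of 70 members and opposite signs in 28, with a Spearman correlation of 0.04 across members, which share each library's base composition. Without mutant replicate 1 at 5 months the difference was called for 18 members, 3 higher and 15 lower at 15 months, where 13.8% of all genes were called. These included Epha4 (-0.95, adjusted p = 0.00311), Epha5 (-1.50, 0.00401), Robo2 (-0.65, 0.0119), Unc5c (-0.64, 0.0135) and Unc5a (0.45, 0.00808). With other mice left out, between 1 and 4 members were called, and that was Plxna4 alone in 8 of those 12 fits.

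The direction of the 15-month differences ran with the base composition and length of the transcripts. The 11 members that were lower had 40.1% to 51.6% GC in their longest transcript (median 45.9%) and lengths of 3930 to 12877 bases, while the 5 that were higher had 56.1% to 63.5% GC (median 59.4%) and lengths of 2363 to 4548 bases. Across the 70 members the Spearman correlation of the log2 fold change at 15 months was 0.71 with GC content and -0.52 with length, beside 0.51 and -0.44 across all genes, and at 5 months it was 0.10 and -0.08. Members and genes with like GC content share these libraries and are not independent. Of the 22 members with under 50% GC, 10 were called lower at 15 months, where 4.03% of all genes at any GC content were. The share among all genes with under 50% GC was not counted. The median log2 fold change of members was -0.40 under 45% GC and -0.47 from 45% to 50%, where all genes in these ranges had -0.17 and -0.09. Wild types and mutants stood apart in this at 15 months, with genes under 45% GC at a median of 0.05 to 0.12 from the mean of that age in wild-type mice and at -0.14, -0.00490 and -0.12 in mutants.

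Once every library was corrected for GC and length, 1 of 70 members was called at 15 months, Epha6, where 0.170% of all genes were. The median log2 fold change of the 11 members that had been lower was then -0.22, and that of the 5 that had been higher was 0.21. No corrected value of these 16 changed sign, but some came close to 0. The lower ones ran from -0.70 for Epha6 to -0.07 for Sema5a, and the higher ones from 0.04 for Sema6b to 0.26 for Efna3. At 5 months 4 members were called after the correction, where 6.05% of all genes were (3.58% higher and 2.48% lower), with Ntng2, Plxna4 and Nrp1 higher and Robo3 lower. For the difference between ages 1 member was called, Epha6 at -1.08 (limma adjusted p = 0.0464), where 0.767% of all genes were. The correction removes any effect of genotype that itself follows GC content or length, and the part of base composition in the 15-month calls cannot be told apart from such an effect.

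**Figure D4:**
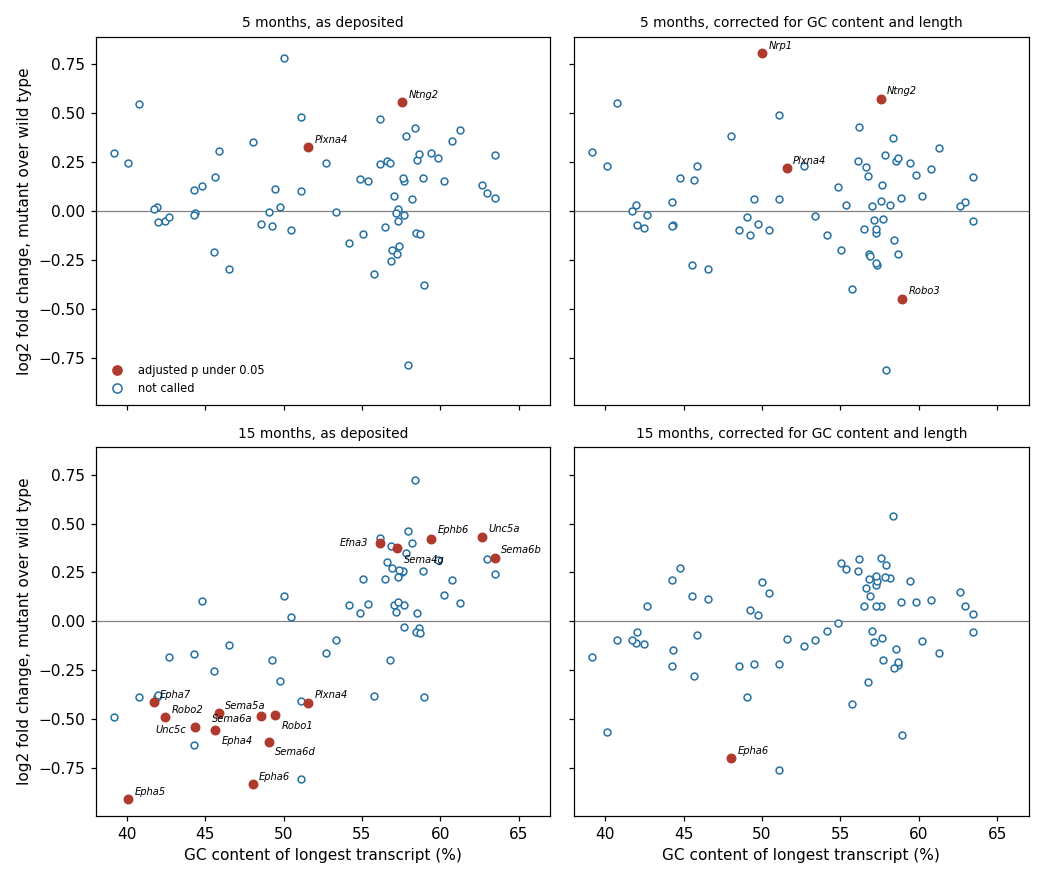
log2 fold change of mutants over wild types (y axis) against GC content of the longest transcript in percent (x axis) for 70 members, at 5 months above and 15 months below, from the deposited values on the left and after the correction on the right, with filled named points for an adjusted p under 0.05. At 15 months the called members lie low at 40.1% to 51.6% GC and high at 56.1% to 63.5%, and Epha6 is the 1 point still called after the correction.

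Genes that act downstream or beside these receptors were followed in a list of 76 cell adhesion, kinase, GTPase regulator and collapsin response mediator genes, all of which were tested. At 5 months limma called 0 of 76, with 12 at an unadjusted p under 0.05, where 2.27% of all genes were called. At 15 months 9 were called, or 11.8% against 6.02%, with 8 lower and 1 higher. The lower genes were the adhesion molecules Nrcam (log2 fold change -0.42) and Chl1 (-0.42), the kinases Abl2 (-0.42), Rock2 (-0.34) and Gsk3b (-0.30), and the GTPase regulators Dock4 (-0.69), Rasa1 (-0.43) and Arhgef12 (-0.37). Dock4 had the largest change, from 3414 ± 266 normalized counts in the wild-type mice to 2121 ± 289 in mutants (SD, n = 3 each, limma adjusted p = 0.0268). The higher gene was Dpysl4, of the collapsin response mediator family, at 1620 ± 106 in wild-type mice and 2095 ± 129 in mutants (SD, n = 3 each, log2 fold change 0.37, limma adjusted p = 0.0391). The lower genes had at most 49.3% GC and Dpysl4 had 56.3%, and after the GC and length correction 0 of the 76 were called by limma at 15 months, with 18 at an unadjusted p under 0.05. The difference between ages was called for Lrrc4c, a netrin-G ligand (-0.50), Nrcam (-0.65) and Dpysl4 (0.55), with limma adjusted p = 0.0421, 0.0435 and 0.0450.

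At 15 months 2 of 18 cell type marker lists separated the genotypes by their summed level and 1 by its mean log2 level. Of all single genes, 34.1% did not overlap at that age and 6.02% were called. The summed oligodendrocyte markers were 165658 to 188976 in wild-type mice and 125965 to 150272 in mutants, with 3 of 6 called lower, none at 0 and a mean log2 difference of -0.45 (two-sided exact permutation test, p = 0.1, the lowest possible with 3 and 3 mice). Sema6a and Sema6d are known in oligodendrocytes as well as neurons, and the part of this list in their lower values was not tested. The summed astrocyte markers were also lower in all mutants, at 76847 to 82275 against 86916 to 91303, with 0 of 5 called and none at 0. Slc1a2 made up most of this sum, with means of 60227 in wild types and 48590 in mutants. Aqp4 and Gja1 were lower too, while Gfap (log2 fold change 0.23) and Aldh1l1 (0.13) were higher. The mean log2 level of the astrocyte markers overlapped, with a difference of -0.06 (two-sided exact permutation test, p = 0.4). Their part in the 15-month values was not tested. Markers of oligodendrocyte precursors, with sums of 9350 to 9474 in wild-type mice and 8903 to 9769 in mutants, overlapped, with 1 of 5 called lower. The general neuron markers also overlapped at 15 months, with 1 of 5 called higher and a mean log2 difference of -0.07.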

How the data were processed

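Total RNA of 13 hippocampi, one library per mouse, was sequenced. Per the study's methods and the submitters' processing notes, the authors quantified transcripts with Salmon 0.11.1 against mm10 and deposited gene-level normalized counts from DESeq2 (unit: signal), in a separate table for each age, so the ages' levels were not tested against each other. Between 72.8% and 88.8% of low values in a library were whole multiples of the best step (within 0.1), under the 95% set for recovering reads, so no count test was run, and no counting error or floor is given. Replicates are separate mice, numbered in the sample titles.

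Genotypes were compared with limma 3.58.1 (lmFit, eBayes with a trend, two-sided) in R 4.3.3 on log2(normalized count + 1), leaving out any gene whose mean was under 10, and this scale understates the fold change of low genes. The difference between ages was fitted over all 13 libraries. Members of a role were named when their adjusted p was under 0.05, when theirs was the largest change without overlap at an age, or when their level per kilobase was highest, 28 members in all. GC content and length are those of the longest transcript in GENCODE vM21, matched by symbol for 24399 genes, and the correction was a loess fit (span 0.3) within each library. Marker lists were compared by exact permutation tests. Scripts used Python 3.11.15, pandas 2.3.3, numpy 2.4.6, scipy 1.17.1 and matplotlib 3.10.9, and the fits were tested on simulated data. Members, lists and tests were chosen with earlier results of these data known. Alternatives were pseudocounts of 0.1 and 10, no filter, a mean of at least 100, trimmed-mean rescaling (TMM), the correction, a replicate block, both together, robust hyperparameters, one fit of all 13 libraries, and each mouse left out. Sex was not used, since the labels do not give it per mouse. Behaviour and imaging were not analysed here.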

Additional observations from a re-analysis of the deposited data

Results flagged for a closer look

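Ntng2 at 5 months had 1 wild type, replicate 1, away from the other 3, with a gap to the nearest of them of 0.936 of the group's whole range. Sema6d at 5 months had 1 wild type, replicate 4, below the other 3, with a gap of 0.870 of the range. These were 2 of 29 groups of 4 wild types looked at, where chance gives about 1.45, and in both genes the range itself was small beside the level, from 1793 to 2037 and from 1024 to 1077 normalized counts.

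The effect of genotype differed between the ages for 4 members by limma's interaction term, as the effect at 15 months minus that at 5 months on the log2 scale. The difference was -1.18 for Epha6, -0.74 for Plxna4, -0.77 for Sema5a and 0.60 for Sema4g. For Plxna4 and Sema4g all mutants lay on one side of the wild types at 5 months and on the other side at 15 months. With each of the 13 mice left out in turn, Plxna4 was called in 13 fits, Sema4g in 5, Epha6 in 4 and Sema5a in 3, and none of the 4 changed direction.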

How the results depend on the processing

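Pseudocounts of 0.1 and 10, TMM rescaling, a minimum mean of 100 and robust hyperparameters left 2 members called at 5 months, 15 to 18 at 15 months and 4 for the difference between ages. Over all genes these settings called 337 to 382 at 5 months, 851 to 1318 at 15 months and 264 to 327 for the difference. With a minimum mean of 100, 18 of 65 members were called at 15 months beside 1318 of 12278 genes. Without a filter 12 members and 578 genes were called at 15 months. With the GC content and length correction, 4 members and 929 genes were called at 5 months, 1 and 26 at 15 months, and 1 and 116 for the difference. One fit of all 13 libraries called 725 genes at 5 months, and 6 members and 189 genes at 15 months. With each mouse left out in turn, 0 to 6 members and 7 to 911 genes were called at 5 months, 0 to 21 and 1 to 1532 at 15 months, and 1 to 18 and 34 to 2111 for the difference. None of the 33 values of single genes followed under these settings, those called or changed most, changed sign. Among the other values, the correction turned the sign of 4 of 70 at 5 months and of 15 of 70 at 15 months, 0 of them called before or after it, such as Plxna1 at 5 months (0.01 to -0.11) and Efnb3 at 15 months (0.08 to -0.08). The cause of these changes was not tested, and depth cannot be weighed without reads.

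Same-numbered mice of the 2 genotypes are different animals, and their deviations from the group means correlated at 0.06, -0.01 and -0.09 at 5 months and 0.01, 0.07 and 0.16 at 15 months. With so few mice, these values cannot settle whether the numbers pair the mice. With the replicate block, limma called 0 members (12 at an unadjusted p under 0.05) and 9 genes at 5 months, 19 members and 1595 genes at 15 months (652 higher, 943 lower), and 0 members (18 unadjusted) and 3 genes for the difference. At 5 months wild-type replicate 4 has no mutant of its number, so the block takes that mouse out of the genotype effect. Leaving it out without a block called 0 members (12 unadjusted) and 53 genes at 5 months. With the replicate block and the correction together, 1 member and 157 genes were called at 5 months, 0 (17 unadjusted) and 4 at 15 months, and 0 (18 unadjusted) and 8 for the difference. Not every mouse correlated best with its own number at 15 months.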
